A study of Mus musculus with 2 samples.

Results

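The miR-183, miR-96 and miR-182 cluster was described from small RNA reads of mouse mesenchymal stem cell (MSC) lines with and without Dicer. Its members are the 3 GENCODE hairpins Mir183, Mir96 and Mir182, of 1173 annotated miRNA hairpins that had reads. A read belonged to the cluster when it was at least 18 nt long and lay in sense and without mismatch inside 1 of these hairpins. By this rule 121 distinct sequences were members, 94 of them seen in the null library and 47 in the f/f library. None of them matched any other annotated transcript. The cluster was chosen by values of these same libraries, its ratio of null over f/f and its share of reads of 24 nt or more, so the levels and lengths below are a description and carry no test.

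The series compared 2 small RNA libraries of C57BL/6 MSC lines, which are fibroblast-like cells of adult bone marrow. The null library came from Dicer -/- cells and the f/f library from Dicer f/f cells, which serve as the wild type in the labels. Cells of both genotypes were immortalized and clonal, were grown in alpha-MEM with 10% fetal bovine serum to near confluence, and gave gel-selected RNA of 15 to 50 nt. There was 1 library per genotype, so no difference has a replicate check, a difference between the genotypes cannot be told apart from one between clones, and no p-value is given. Intervals in brackets are 95% intervals and cover counting error only. PCR copies of a molecule are counted as separate reads, so the intervals may be too narrow even for that error.

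The 3 hairpins are made as 1 primary transcript in many tissues. Drosha cuts each hairpin out of that transcript, and Dicer then cuts off the terminal loop, which leaves a duplex of a 5p and a 3p strand. The cluster is best known from sensory organs, where a seed mutation of miR-96 causes deafness, and it is also expressed in several epithelia and tumours. Since Dicer makes the second cut, the ends that a hairpin read has on the loop side are those this enzyme normally sets.

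All 3 hairpins lie on the minus strand of chromosome 6 (GRCm38): Mir183 at chr6:30169668-30169737, Mir96 at chr6:30169446-30169551 and Mir182 at chr6:30165918-30165992. They span 3820 bases, with 116 bases between Mir183 and Mir96 and 3453 bases between Mir96 and Mir182. No annotated gene covers them. The nearest genes are Nrf1, a transcription factor gene that ends at position 30153458, and the lincRNA Rncr4, which starts at 30172893, both on the plus strand. The hairpins are printed 5′ to 3′ from RefSeq (GRCm38.p6), because every comparison that follows is about positions within them. Capitals mark the mature 5p and 3p arms.
Mir183: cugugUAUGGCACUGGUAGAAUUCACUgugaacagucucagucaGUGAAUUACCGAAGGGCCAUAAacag
Mir96: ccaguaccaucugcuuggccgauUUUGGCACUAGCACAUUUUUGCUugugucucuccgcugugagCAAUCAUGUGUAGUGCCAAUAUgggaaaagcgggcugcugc
Mir182: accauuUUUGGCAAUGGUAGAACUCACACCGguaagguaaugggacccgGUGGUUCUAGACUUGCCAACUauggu

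The 5p strands are the abundant ones. They are shown with the seed, bases 2 to 8, in capitals, since the seed largely decides which mRNAs a miRNA binds and any shift of the 5′ end changes it.
miR-183-5p: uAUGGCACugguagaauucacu
miR-96-5p: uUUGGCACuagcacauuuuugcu
miR-182-5p: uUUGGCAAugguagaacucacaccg
No 2 of the 3 share a whole seed: miR-96-5p and miR-182-5p share 6 of the 7 seed bases, miR-183-5p and miR-96-5p also 6, and miR-183-5p and miR-182-5p 5. Over their full length miR-183-5p and miR-182-5p are the most alike, with 18 of 22 bases identical from the 5′ end, against 13 of 22 for miR-183-5p and miR-96-5p and 12 of 23 for miR-96-5p and miR-182-5p. The annotated lengths differ too, at 22, 23 and 25 nt for miR-183-5p, miR-96-5p and miR-182-5p.

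The null library held 6291599 reads and the f/f library 9943989 reads. Reads in miRNA hairpins made up 2.17% of the null library and 59.6% of the f/f library, so that CPM values, which are counts scaled to an equal library total over reads of all lengths, were set by very different RNA populations. Counted per snoRNA and snRNA read instead, every log2 ratio of null over f/f shifts by -2.12, and counted per read that matches any annotated transcript, by 1.75. Of the reads that match a transcript, 136378 of 1208961 in null and 5925711 of 6446558 in f/f lay in miRNA hairpins. In f/f that last scale is thus mostly miRNA reads themselves, so it carries the difference in total miRNA reads between the libraries. A hairpin with 0 reads could have had up to 0.477 CPM in null and 0.302 CPM in f/f, the level of 3 counts. The labels do not state which Dicer exon was deleted, so the 44 null and 16 f/f fragments of Dicer1 mRNA do not check the genotype. The mesenchymal marker miRNAs miR-199, miR-214, miR-143, miR-145, miR-21, miR-22, miR-125b and miR-140 together gave 32400 reads in null and 2232280 in f/f, so the markers of the labelled cell type were abundant in f/f.

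Over all lengths the cluster gave 7259 reads in null and 2383 reads in f/f. Scaled to library size these were 1154 CPM in null and 240 CPM in f/f, a ratio of 4.81 (4.60 to 5.04), or 1.11 (1.06 to 1.16) per snoRNA and snRNA read. The cluster's share of all miRNA reads was 5.32% in null (5.20 to 5.44) and 0.0402% in f/f (0.0386 to 0.0419). The hairpins did not move alike. Mir183 supplied 72.4% of the cluster's reads in null and 27.2% in f/f, Mir182 21.2% in null and 33.3% in f/f, and Mir96 6.43% in null and 39.5% in f/f. Mir96 was thus the least read hairpin of the cluster in null and the leading one in f/f.

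Mir183 had 5254 reads in null and 648 in f/f, or 835 CPM and 65.2 CPM, a 12.8-fold higher level in null (11.8 to 13.9) that was 2.95-fold per snoRNA and snRNA read (2.72 to 3.20). Mir182 had 1538 reads in null and 793 in f/f, or 244 CPM and 79.7 CPM, 3.07-fold higher in null (2.81 to 3.34) but 0.705 of the f/f level per snoRNA and snRNA read (0.647 to 0.769). Mir96 had 467 reads in null and 942 in f/f, or 74.2 CPM and 94.7 CPM, 1.28-fold lower in null (1.14 to 1.43) but 2.64-fold higher per read that matches a transcript (2.36 to 2.96). The direction was therefore the same on each of these scales for Mir183, and it turned with the scale for Mir96 and Mir182. The order Mir183 over Mir182 over Mir96 in the ratio cannot change with the scale, since a change of scale shifts every log2 ratio alike.

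Read length split these totals. At 18 to 23 nt, the size of most Dicer products, Mir183 had 300 reads in null and 627 in f/f. At 24 to 36 nt it had 4954 reads in null and 21 in f/f, a 373-fold higher CPM in null (244 to 603), which was 85.8-fold per snoRNA and snRNA read. By CPM the whole excess of Mir183 in null therefore lay in reads longer than 23 nt. Its short reads were 1.32-fold lower in null (1.15 to 1.52), a direction that turned per read that matches a transcript, where they were 2.55-fold higher.

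Mir96 had 229 short reads in null and 939 in f/f, 2.59-fold lower in null (2.24 to 3.01) and 1.30-fold higher per read that matches a transcript. Its long reads numbered 238 in null and 3 in f/f, a ratio of 125 (42.4 to 612). Almost no long read of Mir96 occurred in f/f, while in null long and short reads of the hairpin were about equally frequent. The short null reads include 57 from the 5′ flank of the hairpin and 11 from its 3′ flank, where f/f had 0. Among reads that overlap the mature 5p arm of Mir96 most, null had 142 short and 217 long reads. Short ones of that arm were 4.14-fold lower in null (3.47 to 4.97). Mir182 had 113 short reads in null and 162 in f/f, a ratio of 1.10 whose interval included no difference (0.859 to 1.41), though it was 0.254 per snoRNA and snRNA read and 3.72 per read that matches a transcript. Its long reads numbered 1425 in null and 631 in f/f, 3.57-fold higher in null (3.25 to 3.93), or 0.821 of the f/f level per snoRNA and snRNA read (0.747 to 0.903).

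Reads of 24 to 36 nt made up 94.3% of Mir183 reads in null and 3.24% in f/f. For Mir96 the share was 51.0% in null and 0.318% in f/f. For Mir182 it was 92.7% in null (91.2 to 93.9) and 79.6% in f/f (76.6 to 82.3). The high f/f share of Mir182 follows from its annotated mature strand of 25 nt, which the limit of 24 nt places among long reads in both libraries. At the limit itself, Mir183 had 143 reads of 23 nt in null and 224 in f/f, and 1833 reads of 24 nt in null and 15 in f/f. Below the minimum length, reads of 16 and 17 nt that matched the hairpins numbered 8 in null and 20 in f/f for Mir183, 22 and 6 for Mir96, and 3 and 2 for Mir182.

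**Figure D1:**
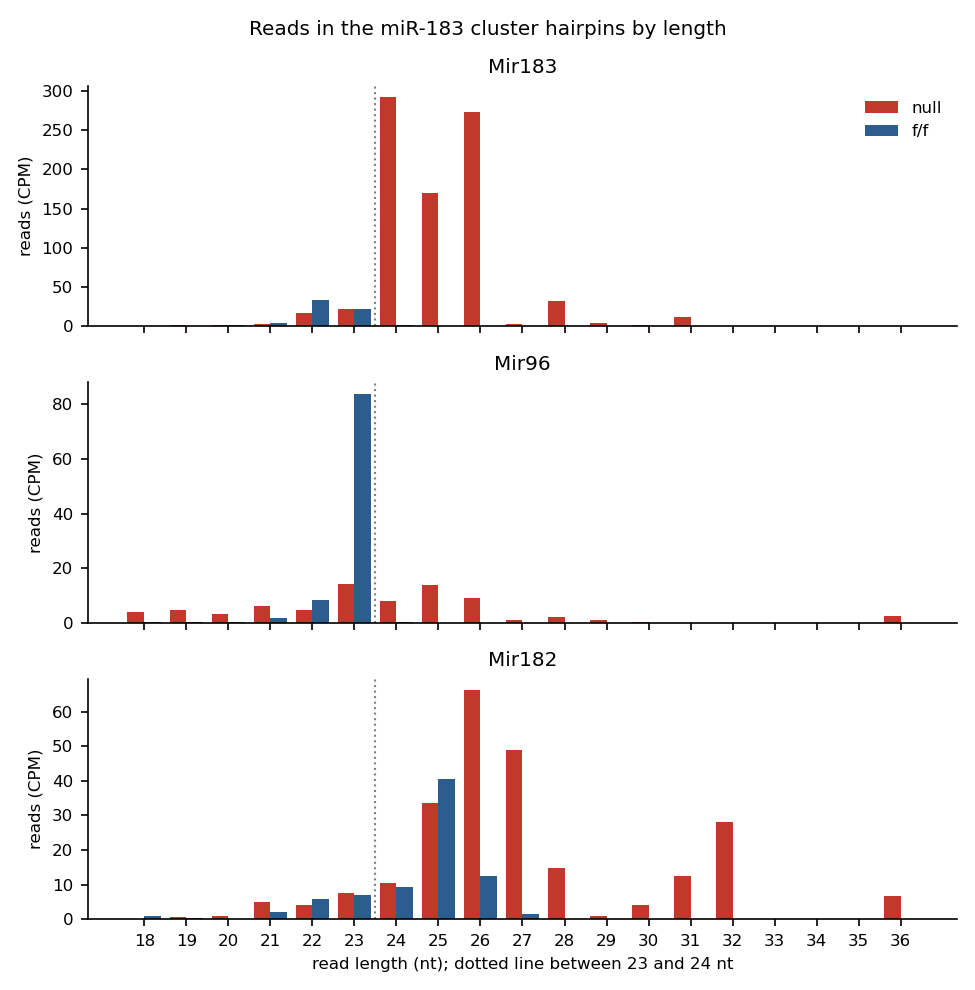
Reads of each hairpin by length, in CPM, with null in red left of f/f in blue; each bar is 1 library, so there are no error bars. Mir183 peaks at 24 and 26 nt in null and at 22 nt in f/f, Mir96 at 23 nt in both libraries, and Mir182 at 26 nt in null and 25 nt in f/f.

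Because the annotated strands differ in length, 5p reads, here those that overlap the mature 5p arm more than any other region, were also sorted by where they end relative to the RefSeq mature 3′ end, which is the end that Dicer makes. For Mir183, 4953 of 5218 5p reads in null and 32 of 624 in f/f ran more than 1 nt beyond it, 94.9% and 5.13%. For Mir96, these were 166 of 359 reads in null and 0 of 932 in f/f, 46.2% in null and at most 0.395% in f/f. For Mir182, 709 of 1374 reads in null and 15 of 759 in f/f ran past that point, 51.6% (48.9 to 54.3) and 1.98% (1.11 to 3.24). By this measure null reads were longer in all 3 hairpins, Mir182 included, and 14.1% of all 5p reads of the cluster in null ended within 1 nt of the annotated end, against 91.4% in f/f. The median 5p read ended 3 nt past the annotated end in null and 1 nt past it in f/f for Mir183, 1 nt past it and at it for Mir96, and 2 nt past it and at it for Mir182.

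5p reads that ended no more than 1 nt beyond the mature end, the forms nearest to the annotated miRNA, were less unequal between the libraries. Mir183 had 265 in null and 592 in f/f, 1.41-fold lower in null (1.22 to 1.64), but 2.39-fold higher per read that matches a transcript. Mir96 had 193 in null and 932 in f/f, 3.06-fold lower in null (2.61 to 3.59), but 1.10 times the f/f level per read that matches a transcript (0.941 to 1.29). Mir182 had 665 in null and 744 in f/f, 1.41-fold higher in null (1.27 to 1.57), but 0.325 of the f/f level per snoRNA and snRNA read. Mature-length forms of all 3 miRNAs were thus read in the Dicer -/- library. Extended forms, by contrast, were higher in null on each of these scales for each hairpin: 245-fold by CPM for Mir183 (173 to 358), 74.7-fold for Mir182 (44.99 to 134) and at least 87.5-fold for Mir96, against 56.3-fold and 17.2-fold per snoRNA and snRNA read for Mir183 and Mir182.

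**Figure D2:**
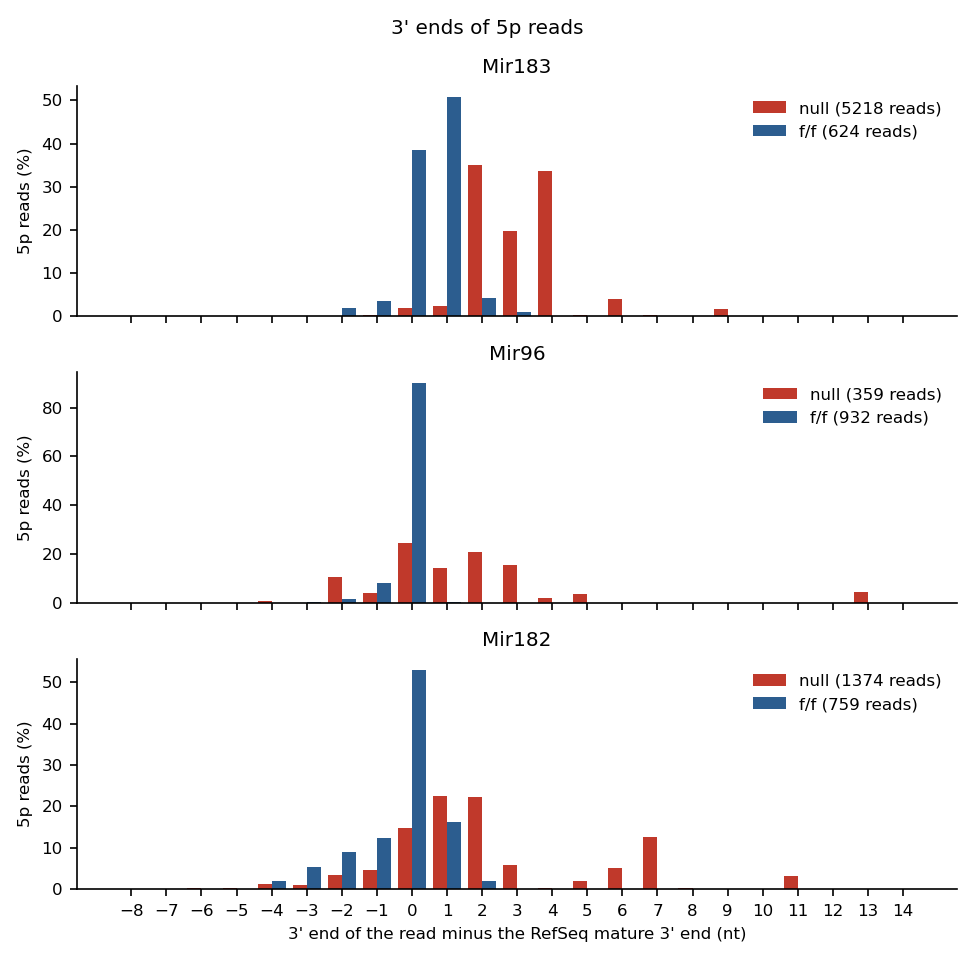
Position of the 3′ end of 5p reads relative to the RefSeq mature end, as a percentage of the 5p reads of that hairpin, with null in red left of f/f in blue. Null reads of Mir183 end mostly at 2, 3 and 4 nt, those of Mir96 spread from -2 to 3 nt, and those of Mir182 form a near group up to 3 nt and a further group at 6 and 7 nt, while f/f reads end mostly at 0 or 1 nt.

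The commonest 5p sequences of Mir183 show how the 3′ ends differ. They are printed as the reads were deposited, in DNA letters, with the bases beyond the RefSeq mature end in capitals.
Mir183, 24 nt: tatggcactggtagaattcactGT
Mir183, 25 nt: tatggcactggtagaattcactGTG
Mir183, 26 nt: tatggcactggtagaattcactGTGA
Mir183, 23 nt: tatggcactggtagaattcactG
Mir183, 22 nt: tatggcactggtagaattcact
Mir183, 31 nt: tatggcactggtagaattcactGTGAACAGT
The form of 24 nt had 1808 reads in null and 15 in f/f. The form of 26 nt had 1706 in null and 0 in f/f, at least 899-fold higher in null, and that of 25 nt had 1013 and 6. These 3 forms, which reach 2 to 4 bases into the loop side, made up most Mir183 reads in null and few in f/f. The annotated form of 22 nt had 106 reads in null and 222 in f/f, and that with 1 further base had 126 and 208. The form of 31 nt had 77 reads in null and 0 in f/f, and it ends at position 36.

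The annotated end held a larger share of null 5p reads in Mir96 than in Mir183, 24.5% against 2.03%. By CPM, however, the annotated form was 6.00-fold lower in null for Mir96 and 1.33-fold lower for Mir183. The Mir96 sequences follow, again with the bases beyond the mature end in capitals.
Mir96, 23 nt: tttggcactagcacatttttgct
Mir96, 24 nt: tttggcactagcacatttttgctT
Mir96, 25 nt: tttggcactagcacatttttgctTG
Mir96, 26 nt: tttggcactagcacatttttgctTGT
Mir96, 21 nt: tttggcactagcacatttttg
Mir96, 36 nt: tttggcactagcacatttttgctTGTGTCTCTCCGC
The annotated form had 88 reads in null and 834 in f/f, 24.5% of the 5p reads in null and, with all reads that end there, 89.9% in f/f. The forms with 1, 2 and 3 further bases had 51, 74 and 56 reads in null and 3, 0 and 0 in f/f. A form 2 bases shorter than the annotated strand had 38 reads in null and 15 in f/f, a 4.004-fold higher CPM in null (2.15 to 7.84) that is less than the shift to snoRNA and snRNA reads. Mir96 ends in null thus spread to both sides of the mature end, and 16 null reads filled the whole read length of 36 nt.

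Mir182 had 2 groups of ends in null. The forms that carry them are printed with the bases beyond the mature end in capitals.
Mir182, 25 nt: tttggcaatggtagaactcacaccg
Mir182, 26 nt: tttggcaatggtagaactcacaccgG
Mir182, 27 nt: tttggcaatggtagaactcacaccgGT
Mir182, 32 nt: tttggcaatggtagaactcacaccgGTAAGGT
Mir182, 36 nt: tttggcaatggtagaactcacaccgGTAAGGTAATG
The annotated form of 25 nt had 201 reads in null and 401 in f/f. The form of 26 nt had 310 and 122, and that of 27 nt 306 and 14, a 34.5-fold higher CPM in null (20.3 to 63.9). A single further base was therefore common in both libraries, and a pair of further bases mainly in null. The form of 32 nt had 173 reads in null and 0 in f/f, at least 91.1-fold higher in null. The form of 36 nt had 42 reads in null and 0 in f/f, and since 36 nt is the read length, its true end is unknown.

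Folded with RNAfold, the hairpins have terminal loops at positions 32 to 37 (Mir183), 51 to 56 (Mir96) and 33 to 46 (Mir182). The loop of Mir182 has 14 unpaired bases and is 1 base away from its mature 5p end. The loops of Mir183 and Mir96 have 6 unpaired bases and are 4 bases away from it. 5p reads that end in or past the loop were 6.46% of Mir183 5p reads in null (337 reads), 8.08% of those of Mir96 (29 reads) and 51.6% of those of Mir182 (709 reads). In f/f they were 0 of 624 reads for Mir183, 0 of 932 for Mir96 and 15 of 759 for Mir182. Most extended reads of Mir183 thus ended within the predicted stem. For Mir182 the loop begins 2 nt past the mature end, so its reads counted here are the same as those counted above as more than 1 nt beyond that end.

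**Figure D3:**
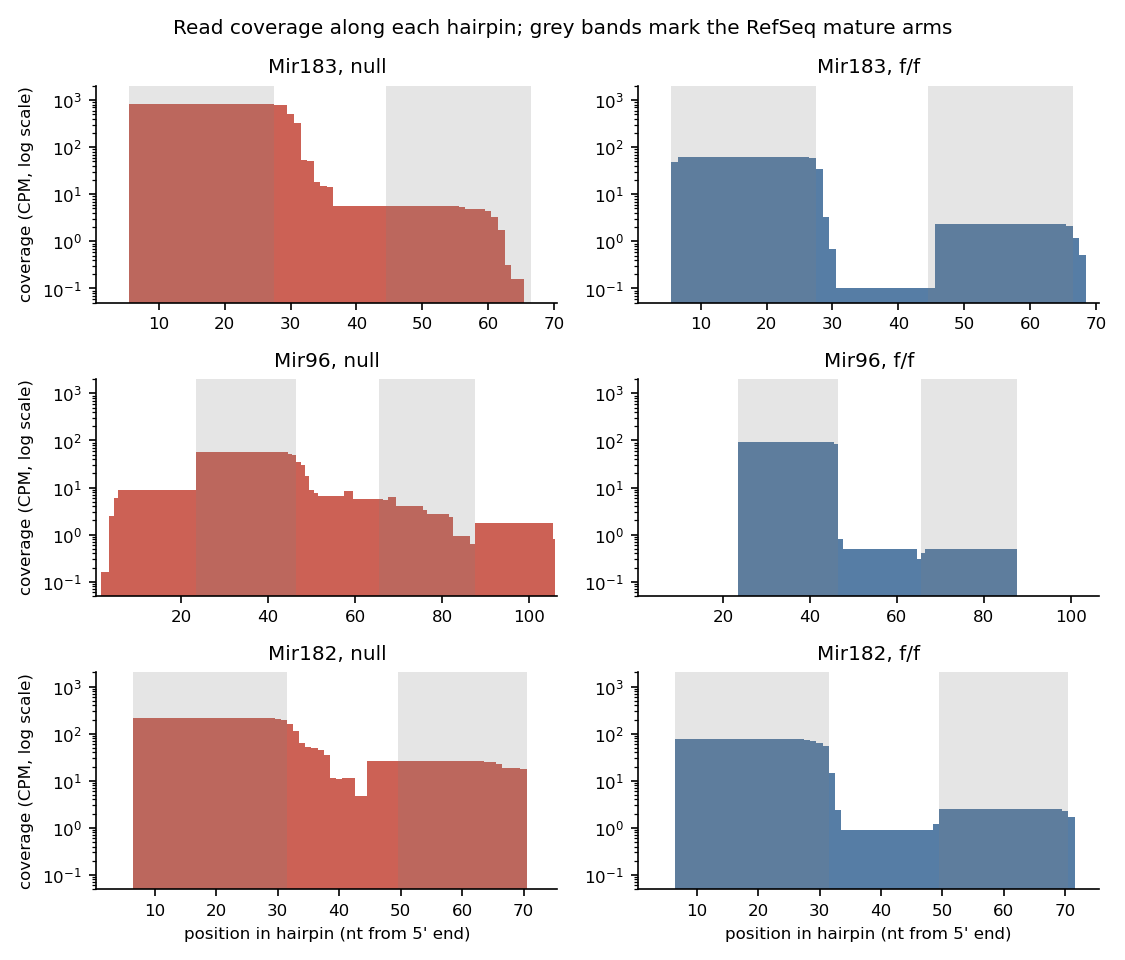
Read coverage in CPM (log scale) by position in each hairpin, with null on the left and f/f on the right and grey bands for the RefSeq mature arms. Between the arms coverage is lower than over the 5p arm in both libraries, for Mir183 5.72 CPM in null and 0.101 CPM in f/f at position 40, and for Mir182 11.4 CPM and 0.905 CPM at position 42; Mir96 has coverage in its outer flanks in null only.

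The 5′ ends, made by Drosha for 5p strands, stayed at the annotated base. Of all 5p reads in the cluster, counted by side of the hairpin, 97.4% in null and 93.3% in f/f began at the commonest f/f start, which is the RefSeq start in each hairpin. For Mir96 it was 359 of 359 5p reads proper in null and 99.6% in f/f, and for Mir182 99.6% in null and 98.8% in f/f. Mir183 was the exception. In null 5101 of its 5p reads began at the annotated base and 94, or 1.80% (1.46 to 2.20), 1 base later, while in f/f 482 began there and 140, or 22.4% (19.2 to 25.9), 1 base later.

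The later start moves the seed by 1 base. Its commonest f/f form, printed with the base beyond the mature end in capitals, had 0 reads in null and 108 in f/f.
Mir183, later start, 22 nt: atggcactggtagaattcactG
Among Mir183 5p reads of 18 to 23 nt alone the later start had 4.10% of reads in null (12 of 293, 2.13 to 7.04) and 23.2% in f/f (140 of 603, 19.9 to 26.8). Among reads of 24 to 36 nt it had 1.66% in null (82 of 4925) and 0 of 21 reads in f/f. The difference between the libraries in start position was therefore present within short reads and could not be read at f/f depth among long ones. The leading null form with this start was 25 nt long and had 44 reads in null and 0 in f/f.

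Reads past the hairpin midpoint, loop and flank pieces included, were 3.46% of cluster reads in null and 2.85% in f/f. Reads that overlap the mature 3p arm more than any other region numbered 215 in null and 53 in f/f, a ratio of 6.41 (4.73 to 8.83). Of these Mir183 had 34 in null and 23 in f/f, Mir96 17 and 5, and Mir182 164 and 25. In null 180 of the 215 reads reached 24 nt, whereas 0 of the 53 f/f reads did, at least 94.8-fold more in null by CPM. The 5′ end of a 3p strand is the other end that Dicer makes.

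In Mir183, 33 null reads began at position 37, inside the predicted loop, and 0 at position 46. In f/f 0 reads began at 37 and 23 at position 46, next to the annotated 3p start at 45. Position 37 is the base after position 36, at which 88 null 5p reads ended, so 5p and 3p reads of null met in the loop with no base between them. In Mir182, 132 null reads began at position 45 and 27 at position 39, the base after position 38 at which 173 null 5p reads ended. In f/f 22 reads of Mir182 began at the annotated 3p start, position 50, and 3 at position 49, where null had 0. Reads from position 7 that end at 44, the counterpart of the start at 45, would be longer than the 36 nt that were read. The starts on the loop side of the 3p arm thus lay at different positions in null and f/f for Mir183 and Mir182. In Mir96, null reads began at positions 58 (11 reads) and 68 (4 reads), while f/f reads began at the annotated start 66 (4 reads) and at 67 (1 read), so the f/f side of that comparison rests on 5 reads. Position 47 of Mir96 was a start in both libraries, with 4 null and 5 f/f reads. The leading 3p form of Mir182 in null ends at the annotated 3p end and begins with bases of the loop side. Capitals mark those that lie before the mature arm.
Mir182, 3p, 26 nt: ACCCGgtggttctagacttgccaact
It had 106 reads in null and 0 in f/f, at least 55.8-fold higher in null.

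Loop pieces bounded by the mature arms on both sides were rare. Mir182 had 0 such reads in null and 9 in f/f, which ran from position 32 to 49. Those are exactly the bases between the commonest f/f 5p end at position 31, where 403 f/f reads ended, and the 3p start at 50. In Mir96, 0 null and 5 f/f reads ran from position 47, 1 base after the 5p end at 46, to position 64 or 65, and in Mir183 0 null reads and 1 f/f read ran from position 28 to 45. The f/f loop reads are printed as the pieces that fit between the mature arms.
Mir182 loop: gtaaggtaatgggacccg
Mir96 loop: tgtgtctctccgctgtgag
In Mir96, 14 null reads and 0 f/f reads began at position 48 and ended at 69, past the 3p start.

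The annotated Mir96 hairpin is long enough to hold flanks outside the arms, and reads there occurred in null only. A set of 57 null reads and 0 f/f reads began at positions 2 to 6 and ended at position 23, the base before the 5p arm, at least 30.03-fold higher in null. On the other side 11 null reads and 0 f/f reads began at position 88, the base after the 3p arm, and ended at 105 or 106. These ends abut the cuts that Drosha makes. A further 56 null reads and 0 f/f reads began at the same place and ran past the annotated hairpin end, which the count above leaves out. They match to position 106, and whether the bases past it are those of the genome was not looked up here. The Mir183 and Mir182 arms begin at positions 6 and 7 of their annotated hairpins, too close to the edge for a read of 18 nt to lie before them. The leading flank form reads as follows.
Mir96 flank, 19 nt: taccatctgcttggccgat
It had 22 reads in null and 0 in f/f.

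Bases that do not match the hairpin were also found at read ends and are not part of the counts above. Among reads under 36 nt, 300 in null and 135 in f/f matched a hairpin of the cluster except for 1 to 3 end bases, 3.97% (3.54 to 4.43) and 5.36% (4.51 to 6.31) of matched and such reads together. The unmatched bases were only T in 55.3% of these in null and 28.9% in f/f, and only A in 16.7% in null and 43.7% in f/f. The share with only T was 62.0% in null (116 of 187) and 33.3% in f/f (13 of 39) for Mir183, 45.8% (49 of 107) and 31.2% (24 of 77) for Mir182, and 1 of 6 reads and 2 of 19 for Mir96. A single form, Mir183 from position 6 to 30 with 1 further T, gave 78 of the 166 null reads with only T. At 36 nt, 233 null reads and 0 f/f reads matched except for up to 6 end bases, and these were mostly Mir182 (160 reads) and Mir183 (72 reads). In 121 of them the unmatched bases were Ts, alone or followed by the first letters of ctgta, and in 50 those letters alone. The letters ctg were also the most frequent first 3 unmatched bases of 36-nt reads from other miRNA hairpins, at 26.2% of 1463 null reads and 37.2% of 43 f/f reads.

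Set against other miRNAs, the cluster's 5p arms stood at the high end of the ratio of null over f/f. The cluster was chosen by this ratio and by its long reads, so its place among other arms is a description. The comparison covers 295 miRNA arms with at least 100 f/f reads, which all 3 5p arms passed and none of the 3p arms. Since this minimum is set on f/f only, arms read mainly in null are missing from the shares, medians and ranks below. Among those left out, miR-141-3p had a log2 ratio of 6.44, miR-203-3p 5.66 and miR-10b-5p 5.19, each above the 3.72 of miR-183-5p. By CPM over all lengths, miR-183-5p and miR-182-5p were more than 2-fold higher in null, and of all arms 4.07% were, but Mir182 was lower in null per snoRNA and snRNA read. None of the 3 was more than 2-fold lower, against 89.8% of all arms, whose median log2 ratio was -5.18. At 18 to 23 nt only miR-96-5p was more than 2-fold lower, against 94.2% of all arms, and none was more than 2-fold higher, against 2.71%. At 24 to 36 nt all 3 were more than 2-fold higher, against 55.2% of the 232 arms with a ratio there, and none more than 2-fold lower, against 35.3%. By CPM, long reads higher in null were thus common among all arms, while short reads near the f/f level were not. Per snoRNA and snRNA read, the short ratio was 0.174 for the Mir183 hairpin, 0.0887 for Mir96 and 0.254 for Mir182. The long ratio of Mir182 was 0.821 on that scale.

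By rank of the ratio over all lengths, miR-183-5p was 2, miR-182-5p 11 and miR-96-5p 24 of 295. At 18 to 23 nt the ranks were 15, 11 and 22 of 295, where the log2 ratios were -0.38, 0.14 and -1.56 and the median of all arms was -6.04. At 24 to 36 nt they were 4, 111 and 13 of 232, with log2 ratios of 8.53, 1.69 and 6.84 and a median of 1.49. In abundance miR-183-5p was number 6 among these arms in null and number 185 in f/f, miR-182-5p 20 and 171, and miR-96-5p 49 and 163. These are low-level miRNAs in f/f that were among the more frequent ones in null. Arms in this comparison are sides of the hairpin midpoint, so the null values of miR-96-5p include the 57 reads of its 5′ flank. With only reads that overlap the mature 5p arm most, its log2 ratio was -2.05 at 18 to 23 nt and -0.72 over all lengths. Its ranks were not recomputed for these reads.

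**Figure D4:**
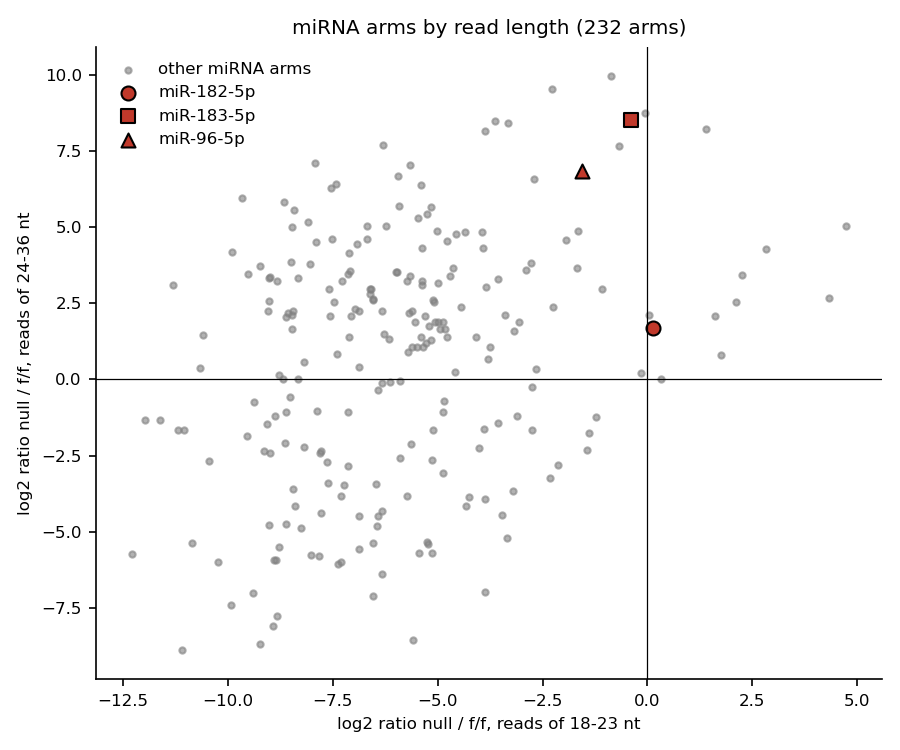
Log2 ratio of null over f/f for 232 miRNA arms, at 18 to 23 nt on the horizontal axis and 24 to 36 nt on the vertical axis; each point is 1 arm, and arms with 0 reads in a library are set at the floor of 3 counts. The red miR-183-5p, miR-96-5p and miR-182-5p lie at -0.38, -1.56 and 0.14 on the horizontal axis, toward the right of a cloud of arms whose median over all 295 arms was -6.04. The miR-96-5p point includes null reads of the 5′ flank of its hairpin.

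The arms nearest to the 3 members were ranked by their distance in these 2 ratios. miR-183-5p was nearest to miR-350-5p, at a distance of 0.39 on the log2 scale over the 2 ratios, then to miR-21a-3p (0.90) and miR-532-5p (1.53). miR-350-5p had 2126 reads in null and 348 in f/f, of which 1920 and 7 were long. miR-532-5p had 6415 reads in null and 1872 in f/f, of which 5765 and 9 were long. Like miR-183-5p, all 3 had most null reads and few f/f reads above 23 nt. miR-96-5p was nearest to miR-30e-3p (1.17), miR-21a-3p (1.22) and miR-1983-3p (1.96). Of these miR-30e-3p had 272 reads in null and 1559 in f/f, of which 121 and 2 were long. The short ratio of miR-96-5p used for its distances includes the null reads of its 5′ flank. miR-182-5p was nearest to miR-221-5p (1.50), miR-188-5p (1.78) and miR-6236-5p (2.16). Long reads were 95.3% of miR-221-5p reads in null and 94.01% in f/f. They were 54.7% of miR-6236-5p reads in null (175 of 320) and 47 of 100 in f/f, and for miR-188-5p 15 of 46 in null and 0 of 104 in f/f. Arms of hairpins with a Gm symbol, alone or joined with a Mir hairpin of the same arm sequence, were left out of this ranking. With them included, a choice made after the values were seen, the 5p arm shared by Gm25285 and Mir466c was nearest to miR-182-5p (0.46), with 1109 reads in null and 811 in f/f, of which 763 and 275 were long, and the nearest 3 of miR-183-5p and of miR-96-5p were the same arms.

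Other groups of miRNAs were set beside the cluster. Both arms of Mir532 together had 6416 reads in null and 2536 in f/f, of which 5765 and 9 were long, and the 3p arm had 1 read in null and 664 in f/f. Summed with its neighbours Mir188, Mir362, Mir500 and Mir501, its cluster had 6575 reads in null and 10173 in f/f, a ratio of 1.02 (0.990 to 1.05), with 6 of 8 arms more than 2-fold lower, against 89.8% of all arms, and 1 more than 2-fold higher, against 4.07%. miR-10b-5p, with too few f/f reads for the list of 295, had 231 reads in null and 10 in f/f, of which 214 and 0 were long.

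Sensory and epithelial miRNAs that are often expressed with the cluster were counted as 1 list. Of 15 arms seen from miR-200, miR-203, miR-205, miR-204, miR-211, miR-124, miR-9 and miR-7, 2 had at least 100 f/f reads, and both, miR-7-5p and miR-7-3p, were more than 2-fold lower in null, like 89.8% of all arms. miR-7-5p had 1100 reads in null and 7163 in f/f. The median log2 ratio of those 2 arms was -2.69, against -5.18 for all arms. Summed, the list had 1420 reads in null and 7681 in f/f, 3.42-fold lower in null (3.23 to 3.62), and miR-7 decided that direction. Without miR-7, a choice made after the values were seen, the other 12 arms had 295 reads in null and 115 in f/f, a 4.05-fold higher CPM in null (3.26 to 5.07). None of these 12 had 100 f/f reads, and their log2 ratio of 2.02 is less than the shift to snoRNA and snRNA reads. Of the 295 null reads, 285 came from the 8 epithelial arms, which had 37 reads in f/f. The remaining arms had few reads, and fewer in null: miR-9-5p 10 in null and 38 in f/f, miR-9-3p 0 and 19, miR-204-5p 0 and 16, and miR-124-3p 0 and 5.

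Epithelial markers were low in both libraries and higher in null. Their 8 arms together gave 285 reads in null and 37 in f/f, or 45.3 CPM and 3.72 CPM, a ratio of 12.2 (8.62 to 17.6). miR-203-3p, a miRNA of the epidermis, had 128 reads in null and 4 in f/f, and miR-205-5p, of stratified epithelia, 47 and 16. Of the miR-200 family, which keeps epithelial cells from a mesenchymal state, miR-141-3p had 55 reads in null and 1 in f/f and miR-200c-3p 44 and 9, while miR-429 had 0 reads in both libraries. Unlike the cluster, these markers were short in null: 278 of their 285 null reads, and all 109 null reads of the miR-200 family, were of 18 to 23 nt. Most of these marker reads came from 3p arms, whereas 96.5% of the cluster's null reads lay on the 5p arm, so the comparison sets unlike arms side by side. The part of epithelial reads in the cluster's levels was not tested.

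The remaining marker lists were counted in the same way. Among mesenchymal miRNAs, 16 of the 17 arms that passed the f/f minimum lay over 2-fold lower in null, against 89.8% of all arms. Blood markers had 578 reads in null and 193 in f/f, a ratio of 4.73 (4.01 to 5.60), and most of them, 508 and 157, came from miR-451a, which is known to mature without Dicer. Of the other blood markers, miR-223-3p had 38 reads in null and 9 in f/f, miR-142-3p 25 and 10, and miR-142-5p 5 and 1. miR-150-5p went the other way, with 2 and 16. Neural markers had 15 reads in null and 998 in f/f, and endothelial markers 13 and 335. Of the neural reads, miR-128-3p gave 5 in null and 932 in f/f. The neural and the endothelial list each had 1 arm with at least 100 f/f reads. Each of these arms lay over 2-fold lower in null, like 89.8% of all arms. In these bulk libraries fewer cells of a type and less RNA per cell cannot be told apart.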

How the data were processed

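Qiazol-extracted RNA of 15 to 50 nt, cut from a 15% gel, was cloned and sequenced by Illumina's small RNA method, per the labels' protocols. As deposited, the values are raw counts of distinct read sequences, 5 to 36 nt long, with no coordinates. No library held reads of 35 nt, and 36 nt holds inserts at least as long as the read. The genome build was mm9, per the submitters' processing notes. The software for trimming and alignment is not given in the sources used here. What the 2 in the null library's title means is not stated in the labels.

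Reads of at least 18 nt were matched in sense without mismatch to GENCODE M21 transcripts (GRCm38); mature arms came from RefSeq (GRCm38.p6), and all 3 hairpins matched by symbol. The arm was the side of the hairpin midpoint; 5p reads proper were those overlapping the mature 5p arm most. Ratios are null over f/f of CPM over all reads, with exact conditional intervals; counts carry exact Poisson and shares exact Clopper-Pearson intervals at 95%. A count of 0 was set to 3 counts per library and the fold given as a bound. Identical hairpin copies were joined. Python 3.11.15, numpy 2.4.6, scipy 1.17.1, matplotlib 3.10.9 and RNAfold 2.7.2 were used. In a check on simulated data, 100 of 100 fragments cut from the 3 hairpins were matched back to them and 0 of 100 shuffled ones. This matching check held no other transcripts and no difference between null and f/f, so it covers the matching step only.

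The members and the lists (sensory and epithelial miRNAs, the cell type markers, Mir532, Mir10b and the miR-200 family) were chosen with earlier results of these data known. Named were all 3 hairpins and arms, the 3 commonest forms per hairpin and library, and the 3 arms nearest to each 5p arm in the 2 length ratios, ranked over hairpins with a Mir symbol. Further forms, the flank, loop, tail and abutting reads and the scales per hairpin were picked with their values already seen. The alternatives varied the denominator, the length limit, the matching rule, the minimum copy number, reads of 36 nt, the arm and the start.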

Additional observations from a re-analysis of the deposited data

How the results depend on the processing

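Log2 ratios of null over f/f moved with the scale. For all cluster reads the value was 2.27 per read of the library, 2.40 per read of 18 nt or more, 0.15 per snoRNA and snRNA read and 4.02 per read that matches a transcript. At 18 to 23 nt it was -0.77, -0.63, -2.89 and, reversed, 0.99 on these scales, and at 24 to 36 nt 3.997, 4.13, 1.88 and 5.75. Mir182 turned to -0.50 per snoRNA and snRNA read, against 1.62 per read of the library. With the length window, Mir183 went to -0.40 at 18 to 23 nt (3.68 over all lengths) and Mir96 to 6.97 at 24 to 36 nt (-0.35 over all lengths).

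The limit between short and long reads also moved the values; miR-182-5p is annotated at 25 nt, past the main limit. With short reads up to 22 nt the short ratio was -0.069 and the long ratio 2.61, with short reads up to 25 nt 1.48 (reversed) and 5.25, and with a split at the mature 3′ end -0.055 and 7.47. The long share was 95.01%, 45.5% and 80.4% in null under these 3 settings, against 91.2% as reported, and 74.8%, 5.75% and 2.18% in f/f, against 27.5%. In f/f it was 29.7% in matches without the last 3 nt and 30.4% with 1 substitution allowed. The share of 5p reads at the commonest start in null was 98.2% with arms taken from RefSeq, against 97.4%. Copy number and reads of 36 nt changed none of these directions. None of the cluster's sequences matched another transcript, so leaving out shared reads could change no value. Leaving out reads of 36 nt gives no other value at 18 to 23 nt. No paired analysis was possible because each genotype had 1 library, and no replicate could be left out. Depth limits the loop and 3p counts of f/f, many of them under 25 reads.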

Other observations

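Reads antisense to the cluster were found for Mir183 only, and in f/f only. There were 0 in null and 24 in f/f, of which 23 lay opposite the 3p arm in 7 forms of 22 to 25 nt and 1 opposite the 5p arm. The commonest, with 0 reads in null and 13 in f/f, lies at chr6:30169672-30169694 on the plus strand (GRCm38).
Mir183, antisense: ttatggcccttcggtaattcact
A count of 0 in null allows up to 0.477 CPM. Mir96 and Mir182 had 0 antisense reads in both libraries. Opposite the 3p arm of Mir183, antisense reads in f/f were as frequent as the 23 sense 3p reads there.

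Fragments of genes beside the cluster were few. Nrf1 had 323 reads in null and 165 in f/f, a ratio of 3.09 (2.56 to 3.76). Ube2h, a ubiquitin-conjugating enzyme gene further off, had 36 in null and 24 in f/f, a ratio of 2.37 (1.38 to 4.15). The lincRNA Rncr4 had 4 reads in null and 0 in f/f. Per snoRNA and snRNA read, the shift of -2.12 on the log2 scale exceeds the log2 ratios of Nrf1 (1.63) and Ube2h (1.25).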
